A study of Mus musculus with 9 samples.

Results

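The 10 genes described here encode brakes on mitogen-activated protein (MAP) kinase signalling: the dual-specificity phosphatases Dusp1, Dusp2, Dusp4, Dusp5, Dusp6 and Dusp10, the Sprouty genes Spry1 and Spry2, and the Spred genes Spred1 and Spred2. They were picked by symbol from a deposited expression table of 48709 genes, in which all 10 were found. The study holds 9 RNA-seq libraries in 3 groups of 3, each from mouse CD8+ T cells. Control cells were given no OVA peptide, OVA cells were given the peptide, and the last group was given the peptide together with citraconate. The peptide is a piece of chicken ovalbumin, a standard test antigen. Citraconate, an isomer of the macrophage metabolite itaconate, is a dicarboxylic acid. The labels call the cells of 8 libraries PAS-T cells, a term they do not define, and those of OVA plus citraconate replicate 1 OVA-stimulated T cells. The sources used here do not give the strain, the dose or the time of treatment. Nothing in the labels says whether the replicates came from separate animals or cultures, so the p-values measure the spread between these libraries, which may be technical. No group received citraconate without peptide.

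In a T cell, an engaged antigen receptor loads RAS with GTP through the exchange factors RASGRP1 and SOS, and RAS then drives RAF, MEK and the MAP kinase ERK. The parallel kinases JNK and p38 answer stress, cytokines and costimulation. Dual-specificity phosphatases strip the activating phosphates from these kinases, whereas Sprouty and Spred proteins act upstream, where they dampen activation of RAS and RAF. Many of the genes are themselves switched on by the pathway they restrain, so their transcripts are often used as a readout of recent signalling as well as of its limits.

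Levels are in TPM, the share of a library's transcripts that a gene makes up after correction for gene length, and are given as mean ± SD over 3 libraries. Between 14754470 and 17384330 reads per library could be worked back from the table. Differences were tested with limma on log2(TPM + 1) over 11971 genes that reached a mean of 1 TPM in any group, and all 10 members were among them. A gene was called at a Benjamini-Hochberg adjusted p under 0.05. OVA differed from control for 71.9% of tested genes, so each call is given with the size of the difference and the values behind it. In these bulk libraries, fewer cells that make a transcript and less of it per cell cannot be told apart.

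The 10 genes fell into 3 patterns. Dusp1 and Spry1 fell steeply with OVA and were higher again when citraconate was added. Spry2, Spred1 and Spred2 rose with OVA, and of these Spry2 rose further with citraconate. Dusp2, Dusp4, Dusp5 and Dusp6 did not pass the test between OVA and control, and Dusp10 fell slightly. These 5 phosphatase genes, like Dusp1, had their highest values in the citraconate libraries. The plot of TPM by library shows these patterns gene by gene.

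**Figure D1:**
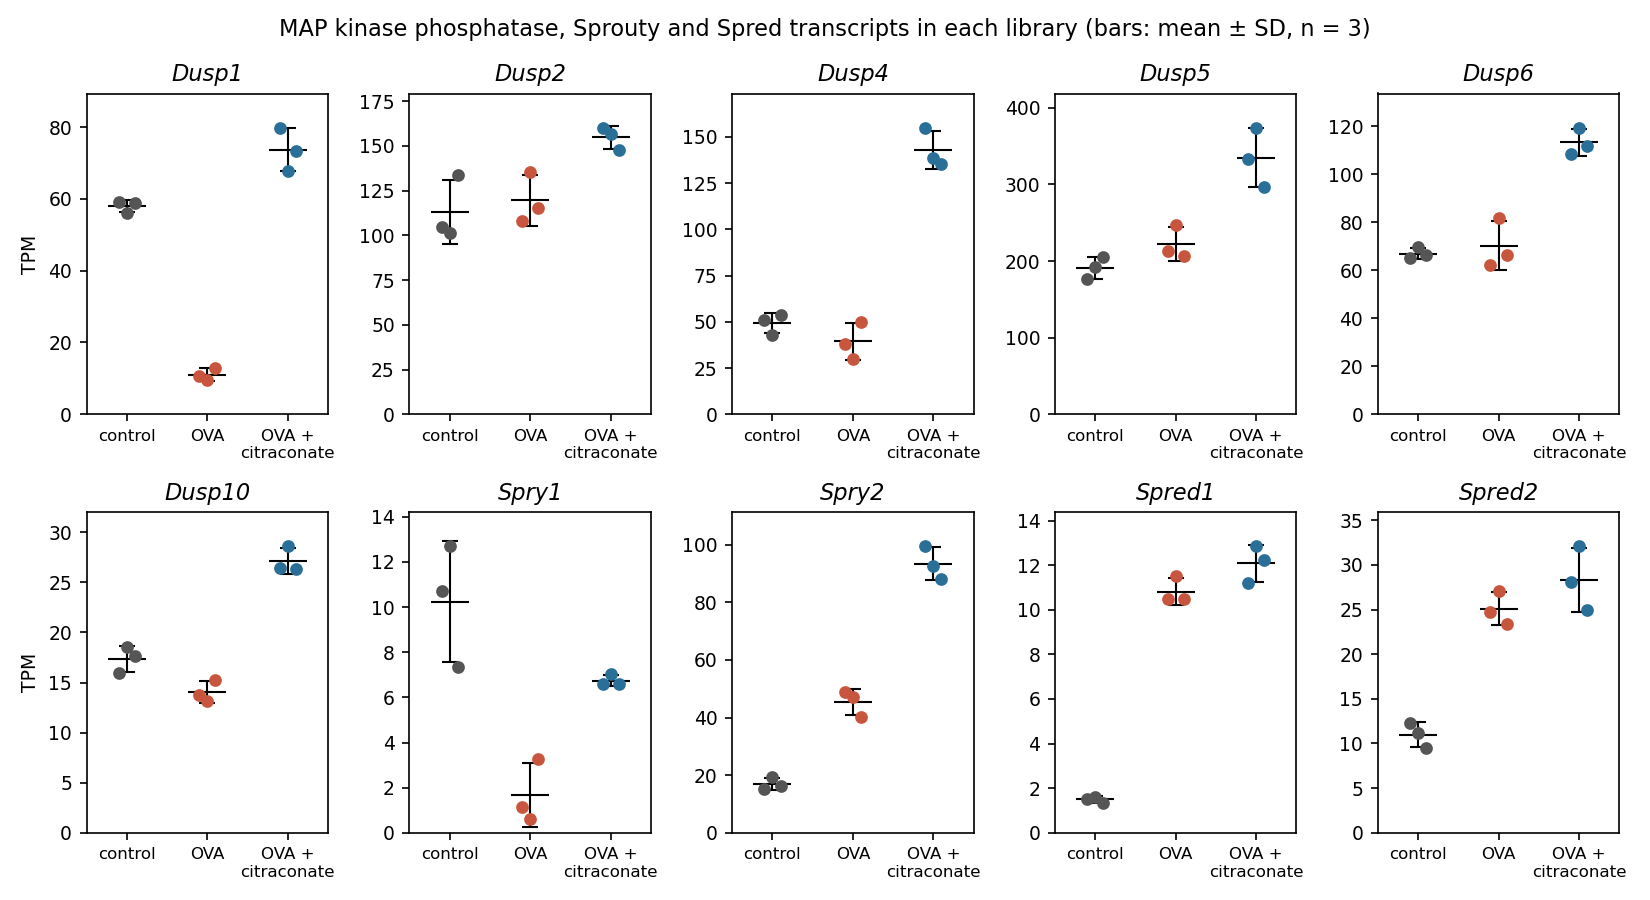
TPM of each gene in each library, with 1 panel per gene, 1 point per library, and the mean and SD (n = 3) as black bars; every vertical axis starts at 0. Dusp1 drops to between 9.55 and 13.0 TPM with OVA and stands at 67.9 to 79.8 TPM with OVA plus citraconate, while Spry2 climbs in each successive group.

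Dusp1 encodes MKP-1, a nuclear phosphatase of p38, JNK and ERK that is induced within minutes of stimulation. Its promoter holds the letters of a cyclic AMP response element, the sequence known to bind CREB and ATF factors, and the stretch around it is shown because Dusp1 had the largest difference between OVA plus citraconate and OVA among the 10 genes. The sequence comes from the RefSeq promoter table on GRCm38.p6 and lies on the minus strand at chr17:26508593-26508630, with the element in capitals; its first base is 143 bases before the transcript start.
Dusp1 promoter: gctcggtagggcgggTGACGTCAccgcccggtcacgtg
Such a perfect TGACGTCA was held by 1.79% of the 32851 promoter windows in the table, each 300 bases long, searched on both strands. A match describes the letters only, and binding was not measured.

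In the control libraries Dusp1 stood at 59.1, 56.0 and 59.0 TPM. With OVA the values were 10.7, 9.55 and 13.0 TPM, and with OVA plus citraconate 79.8, 67.9 and 73.4 TPM. No library of one group overlapped another group, and the OVA libraries stood far below both. From control to OVA the mean went from 58.0 ± 1.78 to 11.1 ± 1.74 TPM, a log2 change of -2.30 (SE 0.10, adjusted p = 4.00e-08). With citraconate it reached 73.7 ± 5.97 TPM, 6.66 times the OVA mean.

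Between OVA and OVA plus citraconate the median change over all genes was a log2 of 0.12, and median-of-ratios scaling removed it. The log2 changes of that step are therefore given as fitted, which is what the adjusted p tests, and also relative to this median. Dusp1 rose by a log2 of 2.64 (SE 0.10, adjusted p = 5.56e-07), or 2.51 relative to the median. The fitted change was at rank 63 of the 11971 tested genes by absolute size, the largest among the members. The OVA libraries enter both of these differences, so the fall and the rise are not independent of each other. Dusp1 was also higher with OVA plus citraconate than in control, with a log2 of 0.34 (SE 0.10, adjusted p = 0.0143). That small difference was no longer called without control replicate 2 (adjusted p = 0.0501) or without OVA plus citraconate replicate 1 (adjusted p = 0.0578).

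Dusp2, Dusp4 and Dusp5 encode the other inducible nuclear phosphatases of the family. Dusp4 (MKP-2) stood at 51.1, 43.0 and 53.5 TPM in control and at 38.2, 30.1 and 50.0 TPM with OVA. With OVA plus citraconate it reached 155, 138 and 135 TPM. Control and OVA overlapped, and the 3 citraconate libraries lay far above both. The log2 change of -0.33 (SE 0.15) between OVA and control did not pass (adjusted p = 0.0735), although it did without control replicate 2 (adjusted p = 0.0492) or OVA replicate 3 (adjusted p = 0.00323). With citraconate Dusp4 rose over OVA by a log2 of 1.86 (SE 0.15, adjusted p = 1.32e-05), or 1.73 relative to the median of all genes, and its mean TPM differed 3.62-fold. Against control the log2 change was 1.52 (adjusted p = 1.85e-05).

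Dusp5, an ERK-specific nuclear phosphatase, was the most abundant of the 10 genes in every group. It ranged from 176 to 205 TPM in control, from 206 to 248 TPM with OVA and from 297 to 374 TPM with OVA plus citraconate, so that the groups did not overlap. The step from control to OVA was small (log2 0.21, 95% interval -0.0017 to 0.43, adjusted p = 0.0693). It missed the threshold as tested and passed it in 9 of 19 alternative settings, such as median-of-ratios scaling (log2 0.30, adjusted p = 0.0325) and leaving out OVA replicate 3 (adjusted p = 0.0469) or OVA plus citraconate replicate 2 or 3 (adjusted p = 0.0444 and 0.0497). The step from OVA to OVA plus citraconate passed, with a log2 of 0.59 (SE 0.10, adjusted p = 5.18e-04), or 0.46 relative to the median.

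A pair of CArG boxes, the binding sequence of serum response factor, lies side by side in the Dusp5 promoter. They are shown because Dusp5 was the other member whose window held a sequence searched. Serum response factor, with its ERK-activated partners, is a textbook route from ERK to immediate early genes, and Dusp5 answers ERK. The stretch is at chr19:53529048-53529097 on the plus strand of GRCm38.p6 (RefSeq), with both boxes in capitals; they run from 82 to 63 bases before the transcript start.
Dusp5 promoter: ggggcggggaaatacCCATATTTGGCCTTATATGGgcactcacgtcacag
A CArG box was held by 1.63% of promoter windows. Of the 9 members with a window in the table, Dusp1 held the only cyclic AMP element and Dusp5 the only CArG boxes. None held the ETS sequence CCGGAAGT or the AP-1 sequence TGANTCA, which were in 3.89% and 7.81% of windows. No window for Dusp4 was used here.

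Dusp2 encodes PAC-1, a phosphatase made mainly by activated lymphocytes, and it moved least of the phosphatase genes between OVA and OVA plus citraconate. It ranged from 101 to 134 TPM in control and from 108 to 136 TPM with OVA, a difference well inside the spread (log2 0.08, 95% interval -0.16 to 0.33, adjusted p = 0.511). With OVA plus citraconate the range was 148 to 160.1 TPM, above both other groups. The log2 change over OVA was 0.37 (SE 0.11, adjusted p = 0.0137), or 0.25 relative to the median (95% interval 0.0068 to 0.50). This call was lost with median-of-ratios scaling (log2 0.24, adjusted p = 0.116) and without OVA replicate 1 (log2 0.31, adjusted p = 0.0565).

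Dusp6 (MKP-3), the cytoplasmic phosphatase that acts on ERK alone, stood at 65.1, 69.5 and 66.1 TPM in control. With OVA it stood at 62.3, 81.8 and 66.4 TPM, and with OVA plus citraconate at 108, 119 and 112 TPM. OVA replicate 2 was the high library of its group, and control lay within the range of OVA (log2 0.06, 95% interval -0.14 to 0.26, adjusted p = 0.574). With citraconate Dusp6 rose by a log2 of 0.69 (SE 0.09, adjusted p = 1.34e-04), or 0.57 relative to the median.

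Dusp10 (MKP-5) prefers JNK and p38 over ERK. It stood at 16.0, 18.5 and 17.7 TPM in control, at 13.8, 13.1 and 15.3 TPM with OVA, and at 26.4, 28.6 and 26.4 TPM with OVA plus citraconate. The groups were separate, and the step down with OVA was small (log2 -0.29, SE 0.08, adjusted p = 0.00925). That step was not called when TPM was recomputed without the granzyme genes (log2 -0.18, adjusted p = 0.0686), which take 0.995% ± 0.110 of transcripts in control and 8.53% ± 0.951 with OVA. The rise with citraconate was larger, a log2 of 0.90 (SE 0.08, adjusted p = 2.05e-05), or 0.78 relative to the median.

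The Sprouty genes moved in opposite directions with OVA. Spry1 stood at 10.7, 12.7 and 7.35 TPM in control, at 1.16, 0.591 and 3.28 TPM with OVA, and at 6.59, 7.02 and 6.60 TPM with OVA plus citraconate. Its OVA values rest on 22, 11 and 66 reads, and OVA replicate 3 was the high library. The 22 and 11 reads were the lowest numbers of any member. The fall with OVA was a log2 of -2.17 (SE 0.31, adjusted p = 1.16e-04), and the rise with citraconate was a log2 of 1.66 (SE 0.31, adjusted p = 0.00118), or 1.53 relative to the median. Between OVA plus citraconate and control the log2 change of -0.51 did not pass (95% interval -1.20 to 0.18, adjusted p = 0.181), although the lowest control library was above the highest citraconate library. This difference was called when only the groups compared were fitted (adjusted p = 0.0266) and without OVA replicate 3 (adjusted p = 0.0362).

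Spry2 stood at 15.1, 19.3 and 16.3 TPM in control and at 48.8, 47.2 and 40.3 TPM with OVA. With OVA plus citraconate it reached 99.4, 92.6 and 88.3 TPM. Every library of a group lay above every library of the group before, in the order control, OVA, OVA plus citraconate. Spry2 rose by a log2 of 1.38 with OVA (SE 0.10, adjusted p = 9.47e-07) and by a further log2 of 1.03 with citraconate (SE 0.10, adjusted p = 2.65e-05), or 0.90 relative to the median. Between OVA plus citraconate and control its mean differed 5.52-fold. The ratio of Spry2 to Spry1 was 1.72 ± 0.440 in control and 13.9 ± 1.04 with OVA plus citraconate. With OVA it ranged from 12.3 to 79.8.

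The Spred genes, whose proteins bring the RAS inactivator neurofibromin to the membrane, followed the peptide and showed little further change with citraconate. Spred1 stood at 1.53, 1.61 and 1.34 TPM in control, from 60 to 67 reads, and was the lowest of the 10 genes there. It reached 10.5, 11.5 and 10.5 TPM with OVA and 11.2, 12.8 and 12.2 TPM with OVA plus citraconate. The rise with OVA was 7.25-fold in mean TPM (log2 2.25, SE 0.09, adjusted p = 3.23e-08), and control stood apart from both peptide groups. On log2(TPM + 1) the fold of such a low gene is understated.

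Spred2 stood at 12.3, 11.1 and 9.53 TPM in control, at 24.8, 27.1 and 23.4 TPM with OVA, and at 28.0, 32.1 and 24.9 TPM with OVA plus citraconate. The rise with OVA was a log2 of 1.13 (SE 0.11, adjusted p = 8.41e-06). For both Spred genes the OVA and citraconate libraries overlapped. The log2 change with citraconate was 0.15 for Spred1 (adjusted p = 0.199) and 0.16 for Spred2 (adjusted p = 0.227). Relative to the median these were 0.02 (95% interval -0.19 to 0.23) and 0.04 (95% interval -0.21 to 0.29), and with median-of-ratios scaling the adjusted p was 0.855 and 0.816. These intervals leave room for modest differences in either direction.

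OVA and control differed for 6 of the 10 members and for 71.9% of all tested genes. The members' count was 8 with the replicate block and 8 without OVA replicate 3. Of the 6, 3 members were higher, where 32.1% of tested genes were, and 3 were lower, where 39.8% were. In OVA plus citraconate against OVA, 59.0% of tested genes were called, and 8 of 10 members. All 8 were higher, where 37.8% of tested genes were, and no member was among the 21.2% called lower. With median-of-ratios scaling 7 of 10 were higher, and over all genes the calls went from 4522 higher and 2543 lower to 3482 higher and 3589 lower. In OVA plus citraconate against control, 59.4% of tested genes were called, and 9 of 10 members. All 9 were higher, where 33.1% of tested genes were, and none was among the 26.3% called lower. The libraries of the groups did not overlap for 7, 8 and 10 members in the 3 comparisons, and for 75.0%, 66.1% and 67.4% of tested genes. The median log2 change of the members between OVA and OVA plus citraconate was 0.80, not yet relative to the 0.12 of all genes. It was 0.77 against control, where all tested genes had a median of 0.04, and 0.07 for OVA against control, where all tested genes had -0.08. Dusp1, Dusp2, Dusp4, Dusp5, Dusp6, Dusp10 and Spry2 were called higher with OVA plus citraconate than in both other groups. These are 7 of 10 members, and 12.6% of tested genes met the same rule. The genes were chosen with results of these data known, so these shares describe them and test nothing.

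**Figure D2:**
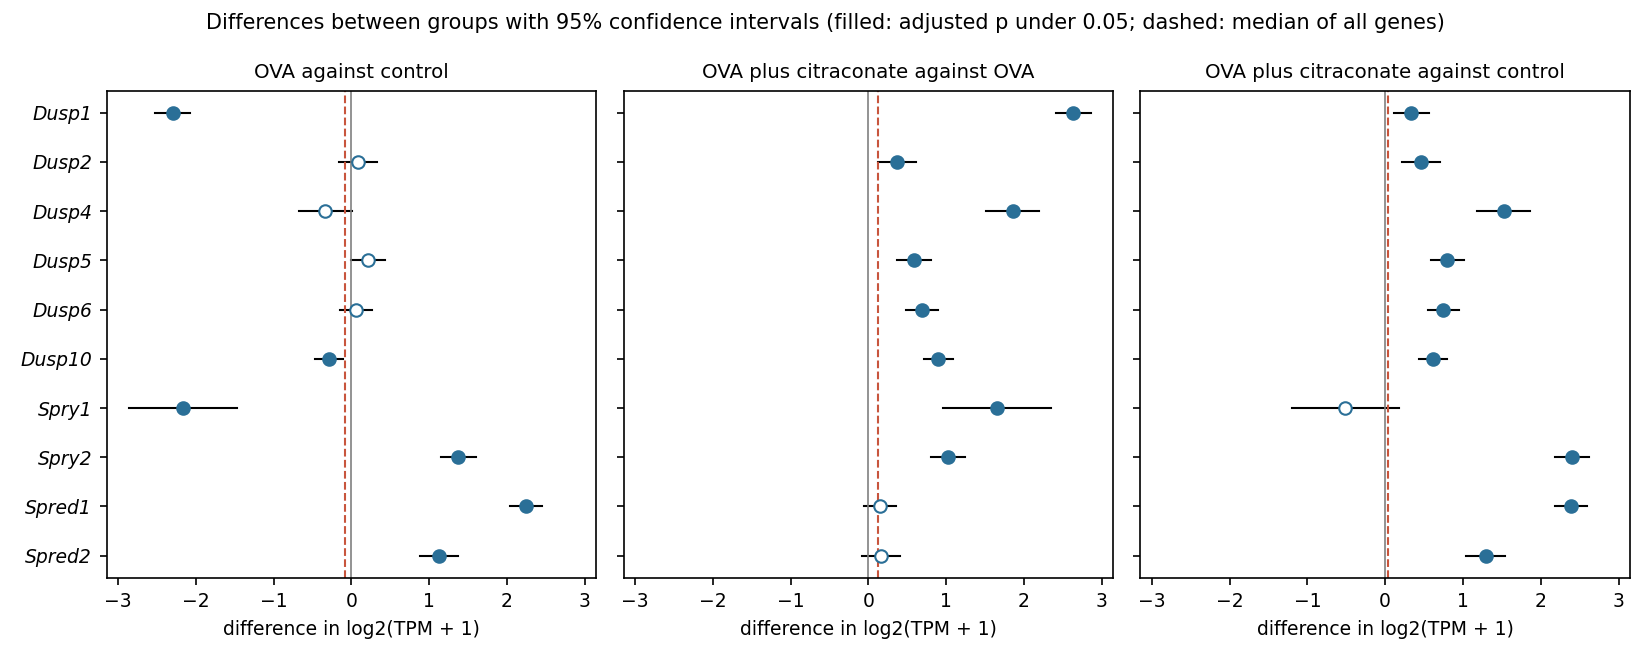
Difference in log2(TPM + 1) for each gene in the 3 comparisons, as points with 95% confidence intervals; filled points passed an adjusted p of 0.05, the grey line marks 0 and the dashed line the median of all tested genes. In the middle panel 8 genes lie to the right of the dashed line with filled points, and Spred1 and Spred2 lie beside it with open points.

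Summed over the 6 phosphatase genes, control and OVA held nearly the same amount of transcript, 496 ± 34.2 and 477 ± 37.2 TPM, with ranges of 472 to 535 and 446 to 518 TPM that overlap. OVA plus citraconate held 846 ± 48.5 TPM, with the lowest library at 792 TPM. The mixture differed more than the sum between control and OVA. Dusp1 made up 11.7% ± 0.758 of the control sum, 2.34% ± 0.471 of the OVA sum and 8.73% ± 0.916 of the OVA plus citraconate sum. Dusp4 made up 9.92% ± 0.938, 8.37% ± 2.46 and 16.9% ± 1.17 in the same order, and Dusp5 made up 38.6% ± 1.33, 46.6% ± 2.03 and 39.5% ± 2.49. The order of mean levels began with Dusp5, Dusp2 and Dusp6 in control and OVA, and with Dusp5, Dusp2 and Dusp4 with OVA plus citraconate. The ranges of Dusp2 and Dusp4 overlapped in the citraconate libraries, so the order of that pair is not settled there.

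The Sprouty and Spred genes behaved differently as a sum, which stepped up in each group: 39.6 ± 5.11 TPM in control, 83.0 ± 4.78 TPM with OVA and 141 ± 7.46 TPM with OVA plus citraconate. Spry2 made up 42.8% ± 4.61, 54.6% ± 2.62 and 66.5% ± 2.21 of it. Spry1 made up 25.5% ± 3.76 in control and 4.80% ± 0.237 with OVA plus citraconate. The stacked bars of summed TPM show that the phosphatase sum is level between control and OVA while the Sprouty and Spred sum is not.

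**Figure D3:**
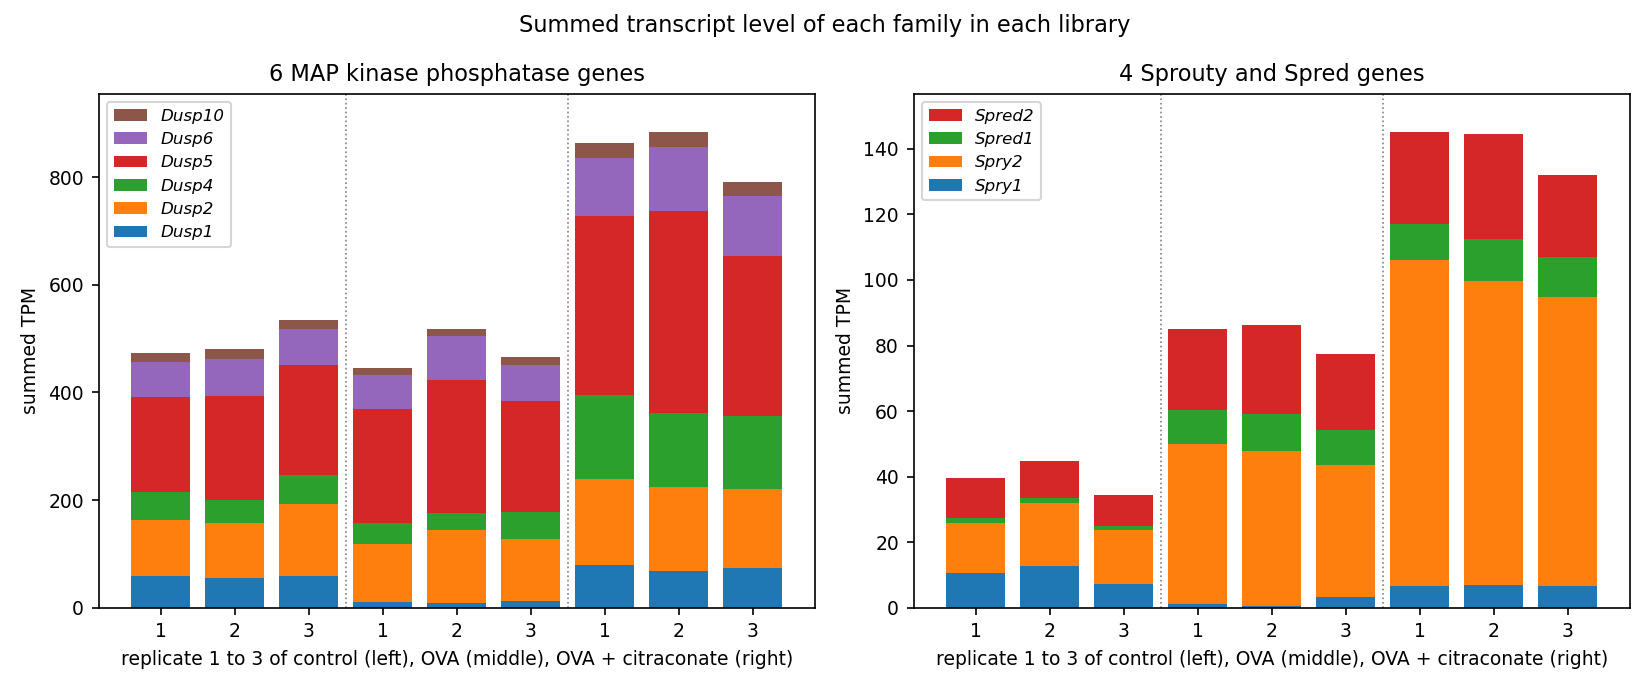
Summed TPM of the 6 phosphatase genes (left) and of the 4 Sprouty and Spred genes (right), with 1 bar per library, stacked by gene and starting at 0; the dotted lines separate control, OVA and OVA plus citraconate. The phosphatase bars stand at 446 to 535 TPM in the first 6 libraries and at 792 to 884 TPM in the last 3, and the thin Dusp1 layer at the base marks the OVA libraries.

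The other genes of these pathways were read from lists written from general knowledge, with earlier results of these data known. Of 12 further tested phosphatase, Sprouty and Spred genes, 7 rose and 3 fell with OVA, and 5 rose and 5 fell with citraconate, or 4 and 5 with median-of-ratios scaling. Their median log2 change in that step was -0.16, beside 0.12 for all genes and 0.80 for the 10 members. Spry4, another Sprouty gene, had a mean of 0.232 ± 0.0760 TPM in control and rose with OVA to 12.3 ± 2.61 TPM. It then fell to 4.70 ± 1.27 TPM with OVA plus citraconate (log2 -1.23, adjusted p = 2.91e-04), the opposite direction to Spry2. Dusp14, a small phosphatase that dampens T cell receptor signalling, rose in both steps, from 8.50 ± 2.47 to 29.0 ± 1.32 and 45.4 ± 1.71 TPM. Dusp7, a cytoplasmic ERK phosphatase like Dusp6, fell with OVA from 20.5 ± 1.35 to 6.71 ± 0.820 TPM, and Dusp22 fell from 20.9 ± 1.20 to 7.18 ± 0.641 TPM. Dusp22 and Dusp28 had the largest rises of the list with citraconate, to 12.4 ± 1.66 and 7.62 ± 1.97 TPM. With OVA, Dusp28 stood at 3.38, 1.19 and 3.52 TPM, values that rest on only 29, 10 and 32 reads. Dusp3, which had risen to 24.3 ± 1.24 TPM with OVA, fell to 14.0 ± 2.07 TPM.

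In the RAS and ERK cascade, 10 of 25 tested genes rose and 11 fell with OVA. With citraconate 6 rose and 10 fell, or 4 and 14 with median-of-ratios scaling. The exchange factor genes Rasgrp2 (60.2 ± 1.92 to 4.59 ± 0.465 TPM) and Rasgrp4 (10.4 ± 1.34 to 0.346 ± 0.0745 TPM) fell furthest with OVA, and Lamtor3 and Hras rose furthest, by log2 changes of 0.82 and 0.76. Rasgrp4 was tested only through its control level. With citraconate Mapk3, which encodes the kinase ERK1, rose from 55.8 ± 6.36 to 98.8 ± 7.89 TPM. The scaffold gene Ksr1 fell from 21.4 ± 2.33 to 10.1 ± 1.07 TPM, and Rps6ka1, an ERK-activated kinase gene, from 220.0 ± 14.5 to 144 ± 6.23 TPM.

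Among RAS GTPase-activating genes, which act at the step Spred proteins serve, 7 of 9 rose and 2 fell with OVA. With citraconate 5 rose and 2 fell, or 4 and 3 with median-of-ratios scaling. Dab2ip went from 0.672 ± 0.173 to 11.7 ± 3.50 TPM with OVA and fell to 2.62 ± 0.677 TPM with citraconate. Rasa3 fell with OVA from 105 ± 7.74 to 30.2 ± 0.0516 TPM and Rasal3 from 139 ± 2.51 to 74.2 ± 6.84 TPM, and Rasal1 and Rasa3 rose furthest with citraconate. Nf1, the gene of the Spred partner neurofibromin, was low throughout; it was chosen after its values were seen. It passed the test with OVA (1.41 to 1.99 TPM, adjusted p = 0.0442) and with citraconate (2.84 TPM, adjusted p = 0.0344), the latter not with median-of-ratios scaling (adjusted p = 0.0888). The call with OVA was close to the threshold. In that comparison the list's called genes went from 9 to 8 with the replicate block and when only the groups compared were fitted. They were also 8 without the filter on low levels, and without any 1 library other than control replicate 2.

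In the JNK and p38 cascades 6 of 20 tested genes rose and 6 fell with OVA, or 9 and 6 with median-of-ratios scaling. With citraconate 8 rose and 2 fell, or 4 and 4 with that scaling. The 10 called became 6 without OVA plus citraconate replicate 3. Gadd45g, an activator of the upstream kinases, rose from 172 ± 18.2 to 399 ± 60.7 TPM with OVA and fell to 183 ± 42.9 TPM with citraconate. The p38 gene Mapk11 went the other way, from 12.2 ± 1.15 to 4.53 ± 1.98 and then 17.2 ± 3.92 TPM. Map2k6, which encodes a p38 activator, fell with OVA from 14.5 ± 0.431 to 5.87 ± 0.258 TPM, and Map2k4 rose from 22.1 ± 1.34 to 36.6 ± 0.572 TPM. Map2k3 fell slightly with citraconate (log2 -0.14, adjusted p = 0.0191). Mapk12, which was tested only through its citraconate level, had 0 to 2 reads with OVA and 10 to 16 with OVA plus citraconate.

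Of 17 genes that ERK signalling is known to switch on, 7 rose and 6 fell with OVA, and 10 rose and 5 fell with citraconate, or 9 and 5 with median-of-ratios scaling. Fos fell with OVA from 79.2 ± 7.76 to 8.86 ± 1.11 TPM and rose with citraconate to 42.8 ± 7.70 TPM. Nr4a1 went from 111 ± 21.7 to 15.6 ± 8.54 and 77.4 ± 16.1 TPM, so both had the direction of Dusp1 and Spry1 in each step. Egr2 did not pass between OVA and control (8.27 ± 1.06 and 10.7 ± 3.33 TPM) and rose with citraconate to 64.4 ± 9.28 TPM, as Dusp4 did. The ETS factor genes Etv4 and Etv5 had another pattern. Etv5 rose from 1.19 ± 0.264 to 18.3 ± 0.390 TPM with OVA and fell to 9.62 ± 1.52 TPM with citraconate, as Spry4 did. Etv4, with 1 read in all control libraries together, stood at 12.0 ± 0.567 TPM with OVA and 7.56 ± 1.31 TPM with citraconate. Ccnd1, which was tested only through its OVA level, fell with citraconate from 1.34 ± 0.442 to 0.351 ± 0.172 TPM. It had 31 to 60 reads with OVA and 5 to 14 with OVA plus citraconate.

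**Figure D4:**
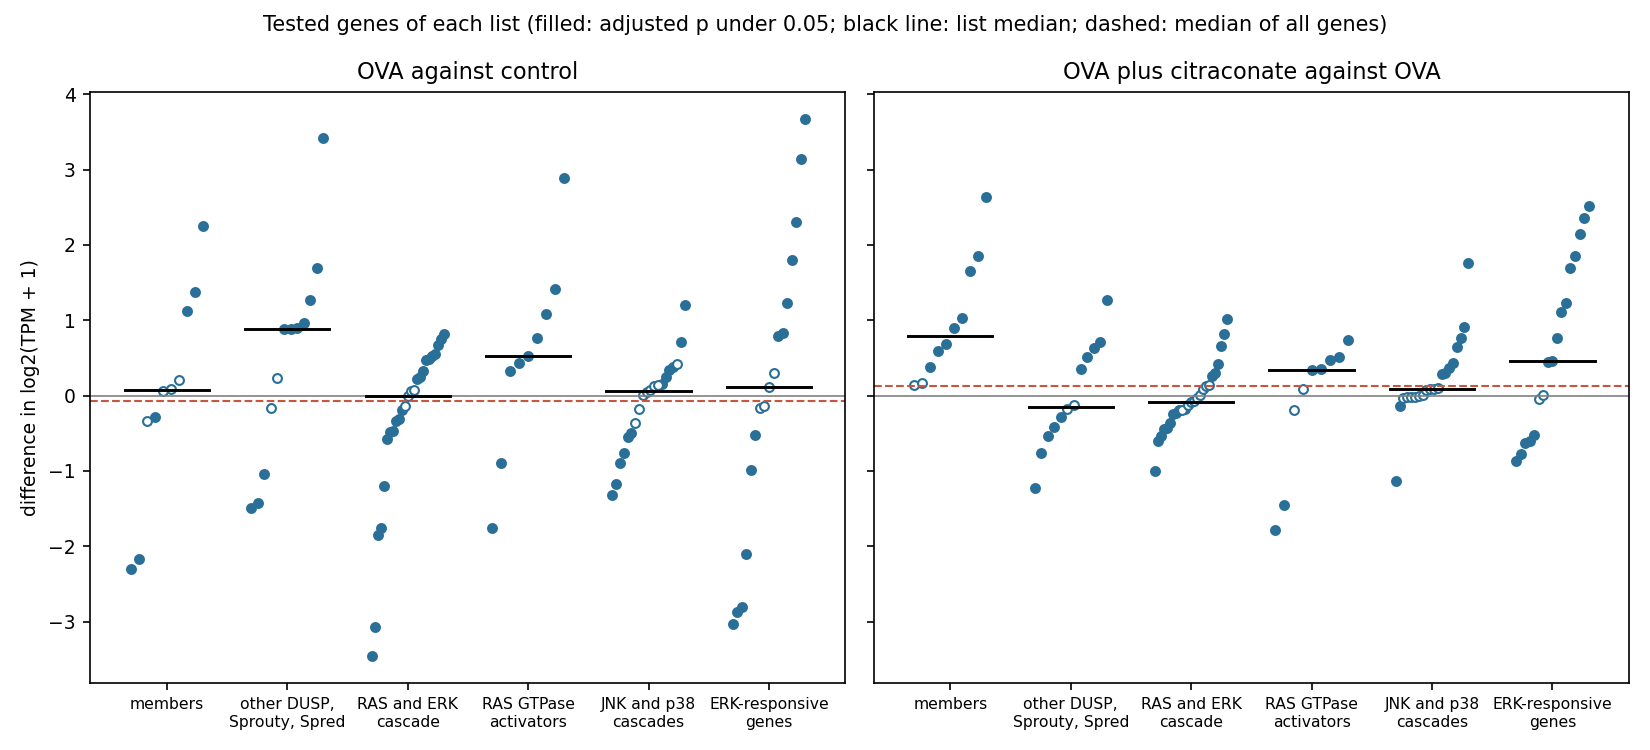
Difference in log2(TPM + 1) for each tested gene of the 10 members and of the 5 other pathway lists, for OVA against control (left) and OVA plus citraconate against OVA (right); filled points passed an adjusted p of 0.05, black lines are list medians and the dashed line is the median of all tested genes. On the right no member was called lower, whereas each of the other 5 lists has called genes on both sides. The members were chosen with results of these data known, so this contrast describes them and tests nothing.

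Across the 9 libraries the closest pairs of members lay within the phosphatase genes or within the Sprouty and Spred genes. Pearson's r of log2(TPM + 1) was 0.98 between Spred1 and Spred2, 0.96 between Dusp4 and Dusp10 and 0.95 between Dusp5 and Dusp6. Spry2 was at 0.92 with each Spred gene, and Dusp2 and Dusp5 were at 0.91. Between a phosphatase gene and a Sprouty or Spred gene, the highest were 0.90 for Dusp5 and Spry2 and 0.89 for Dusp1 and Spry1. The lowest of all pairs was -0.59, between Spry1 and Spred1. These values are descriptions over 9 libraries that fall into 3 groups, so they mainly follow the group means. The most similar gene outside the members, among 9185 candidates, was Peli1 for Dusp1 (r = 0.996), a ubiquitin ligase gene with group means of 27.0, 9.29 and 29.6 TPM. For Dusp4 it was Tnfaip3 (r = 0.997), which encodes the NF-kB inhibitor A20, with 55.8, 48.7 and 133 TPM. For Spred1 it was Pxdc1 (r = 0.998), for Spry2 Fbxl17 (r = 0.995), for Spred2 Wapl (r = 0.995), for Dusp10 Plgrkt (r = 0.989) and for Spry1 Brd9 (r = 0.987). Dusp6 and Dusp2 shared Epm2aip1 (r = 0.970 and 0.940), and Dusp5 was closest to Yipf3 (r = 0.967).

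Markers of cell types moved along with the groups. The 12 T cell markers summed to 8444 to 8994 TPM in control, 2934 to 4689 TPM with OVA and 7764 to 9199 TPM with OVA plus citraconate, none at 0, and all 12 fell with OVA and rose with citraconate, as Dusp1 and Spry1 did. The 8 natural killer cell markers summed to 198 to 234, 1072 to 1457 and 562 to 615 TPM, 7 of 8 rose with OVA, and Ncr1 was at 0 in every control library. With citraconate 7 fell and 1 rose. The exception in both steps was Klrd1, at 190 to 226, 102 to 193 and 282 to 378 TPM, which was not called with OVA. Tyrobp was a large part of the OVA sum, at 612 to 969 TPM. The stromal, endothelial and epithelial list of 6 summed to 41.5 to 44.4, 264 to 388 and 64.4 to 84.3 TPM, with Col3a1 at 0 in every library. Nearly all of this was Pecam1, at 39.8 to 41.8, 235 to 346 and 46.6 to 69.9 TPM, and Epcam, at 1.44 to 2.62, 28.1 to 40.8 and 13.7 to 17.1 TPM. Col1a1, Col1a2 and Dcn reached at most 0.691 TPM in any library. The 7 myeloid markers in the table summed to 12.4 to 15.1, 66.3 to 101 and 24.6 to 38.6 TPM, and of 4 tested, 3 rose with OVA and 3 fell with citraconate. Among them Fcgr3, which natural killer cells also make, had means of 0.338, 58.8 and 8.54 TPM, and Cd14 0.361, 7.87 and 3.57 TPM, while Lyz2 and Adgre1 were at 0 in every OVA library. The 6 B cell markers summed to 13.9 to 15.9 TPM in control and to at most 1.20 TPM in the peptide groups. The 5 CD4 and regulatory T cell markers summed to 61.8 to 70.1, 21.8 to 23.9 and 26.7 to 28.3 TPM. Most of the control sum was Zbtb7b (27.6 to 28.8 TPM) and Cd40lg (23.1 to 29.6 TPM). Cd4 itself was low, at 2.36 to 3.11, 0.929 to 1.60 and 0.836 to 1.23 TPM, and Foxp3 reached at most 0.196 TPM in any library. The 5 erythroid markers summed to 6.72 to 9.22, 3.05 to 5.06 and 10.6 to 12.7 TPM. The part of these shifts in the differences of the 10 genes was not tested.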

How the data were processed

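The authors deposited 1 table of TPM for the 9 libraries, with gene symbols. Its name says FPKM, but each column sums to a fixed total as TPM does. Trim Galore 0.5.0, Salmon and the GRCm39 build are named, per the submitters' processing notes, and no annotation version is stated. Whole reads were worked back from the table for 100% of 16734 genes above 0 in at least 2 libraries (tolerance 0.001 reads) and used for depth and in 1 alternative. They are the smallest whole numbers that fit all libraries, so a gene's reads are fixed only up to a common factor. Which tool counted the reads per gene is not known. All 9 libraries were fitted together in limma 3.58.1 (R 4.3.3; lmFit, eBayes with a trend) on log2(TPM + 1), with two-sided p-values adjusted over all tested genes of a comparison. There were 19 alternatives. The fitting and read recovery steps were tested on simulated data.

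The members, lists and rules were chosen with earlier results of these data known. From each pathway list the text names the 2 highest and 2 lowest called changes with OVA and with citraconate. Some genes that this rule picks are not reported here. Similar genes had to reach 5 TPM in a group and be no predicted gene, pseudogene or numbered copy. Promoter windows were the RefSeq table's 250 bases before to 50 after the start on GRCm38.p6, another build than that of the table, used for sequence only. Replicates differed by more than sampling noise (chi-square per gene of at least 3.79), so none was a library deposited more than once.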

Additional observations from a re-analysis of the deposited data

How the results depend on the processing

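Of 30 member tests (10 genes, 3 comparisons), 21 kept direction and call in all 19 settings. The reversed ones were not called in any setting tried: for OVA against control without OVA replicate 2, Dusp2 had a log2 of -0.0098 and Dusp6 of -0.056 (ranges without any 1 library -0.0098 to 0.21 and -0.056 to 0.14), and with quantile normalization Spred1 had -0.030 for OVA plus citraconate against OVA. The number of members called lower with OVA plus citraconate than in control went from 0 to 1 (Spry1) when only the groups compared were fitted and without OVA replicate 3; without a library it ranged from 0 to 1. Members called ranged from 6 to 8 for OVA against control, 7 to 8 for OVA plus citraconate against OVA and 8 to 10 against control over all settings. The replicate number was not taken as a pairing, since same-numbered libraries correlated at between -0.012 and 0.30 and 4 of 9 correlated best with their own number. The 0.30 was between OVA replicate 2 and OVA plus citraconate replicate 2, and the next highest was 0.14, between the replicate 3 libraries of those groups. Whether the replicate 2 libraries share a preparation was not tested. With the replicate block, 8, 8 and 9 members were called in the 3 comparisons, against 6, 8 and 9 without it, the added ones being Dusp4 (adjusted p = 0.0301) and Dusp5 (adjusted p = 0.0398) for OVA against control. With voom on recovered reads 7, 8 and 9 were called. Depth limits Spry1 with OVA (11 to 66 reads) and Spred1 in control (60 to 67 reads).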
